A study of Rattus norvegicus with 12 samples.

Results

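Fibrotic chondrocytes and growth-factor-treated marrow cells, the 2 fibrotic rat cultures of one study, were compared gene by gene. The comparison used 6 of the study's 12 RNA-seq libraries: 3 of BMSC-CT and 3 of BF-C. BMSC-CT were bone marrow mesenchymal stem cells (BMSCs, adherent marrow cells that can form cartilage, bone and fat) exposed during 1 week to CTGF (connective tissue growth factor), with TGF-β1 (transforming growth factor beta 1) afterwards. BF-C were the fibrotic chondrocytes of the same study, which its design text calls induced fibrotic chondrocytes, while its sample labels call them fibrotic BMSCs with control treatment. All libraries were of wild-type rat bone marrow cells kept in low-glucose DMEM with chondrogenic induction medium. The remaining 6 libraries, untreated BMSCs (BMSC-C) and fibrotic chondrocytes given docetaxel (BF-D), serve here for reference. The labels say neither how the BF-C cells were made fibrotic nor whether the replicates of a group were separate cultures, so p-values measure the spread between these libraries, which may be technical. BMSC-CT came in one deposited table and BF-C in another, so the table, with any batch behind it, and the culture cannot be told apart.

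Fibrotic tissue is marked by dense type I and III collagen, crosslinked by lysyl oxidases and laid down by contractile, smooth muscle actin-bearing myofibroblasts. TGF-β1 acts through a receptor kinase pair and SMAD proteins to switch on collagen genes and CTGF, a matricellular protein that itself promotes matrix deposition. Hyaline cartilage relies instead on type II, IX and XI collagen and aggrecan, and fibrocartilage combines cartilage proteoglycans with type I collagen. Cultures of marrow cells can also hold macrophages, which grow on the same plastic.

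Reads per library were recovered as whole numbers from the deposited normalised counts. The 6 libraries held between 15751106 and 19870047 reads, and the 16841 genes named in both tables took 98.43 to 99.24% of them. BMSC-CT replicate 3 stood apart from the other libraries of its group. Its Pearson correlation with BMSC-CT replicates 1 and 2 across the 15827 tested genes was 0.8869 and 0.9037, against 0.9783 between replicates 1 and 2 and 0.9819 to 0.9826 among the BF-C libraries. Genes for listed ribosomal proteins took 6.92% of its reads, 2.72 and 3.20% in the other BMSC-CT libraries and 0.955 to 0.981% in BF-C, and long genes had fewer reads in it (Spearman correlation of its deviation from the group mean with gene length, across genes, -0.403). Where a list count below moved by more than 1.5 times with 1 library left out, its lowest and highest counts over the 6 such fits are given. The highest came without BMSC-CT replicate 3, except for tendon genes lower in BF-C, where it came without BMSC-CT replicate 2. The lowest came without a BF-C library. Between the cultures the correlation across genes was 0.718 to 0.8488, and between BF-C and the untreated BMSC-C libraries it was 0.8851 to 0.8999. Genes are not independent replicates, and these correlations are descriptions.

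**Figure D1:**
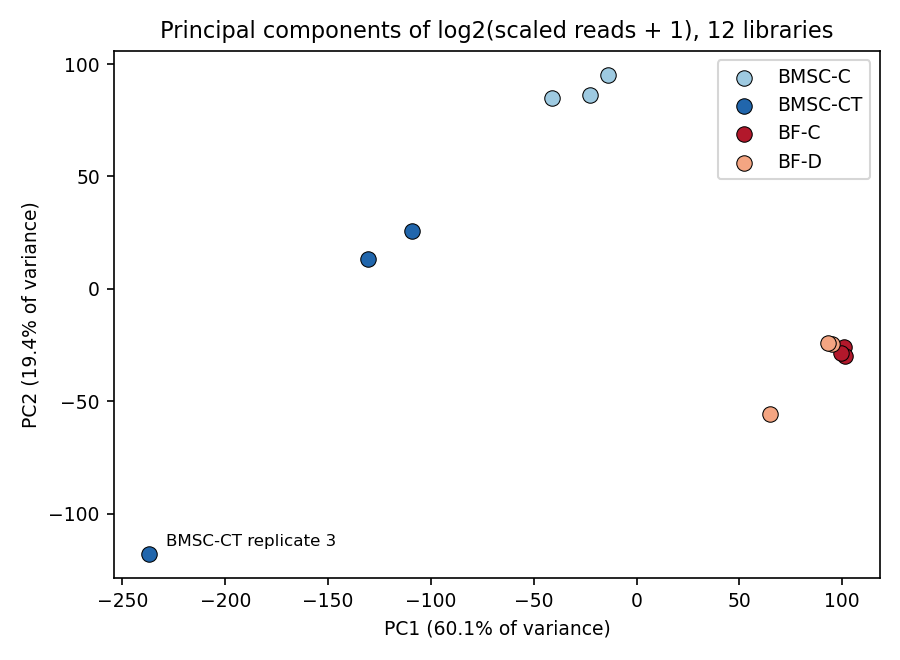
Principal components 1 and 2 of all 12 libraries, from log2 jointly scaled reads, with the share of variance on each axis (60.12% and 19.35%). Each point is 1 library, coloured by group, and BMSC-CT replicate 3 lies away from the other BMSC-CT libraries.

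The cultures differed at 6871 of 15827 genes tested, or 43.4%: 3517 genes (22.2%) were higher in BF-C and 3354 (21.2%) higher in BMSC-CT. A gene counts as differing where limma, a linear model fitted across all genes on log2 of the scaled reads plus 1, gave a Benjamini-Hochberg adjusted p below 0.05; a positive log2 fold change means a higher level in BF-C. Scaled reads are reads brought to a common library size by TMM scaling over all 6 libraries. Of the called genes, 6804 also differed in the same direction without BMSC-CT replicate 3, where 10627 genes (66.9%) passed, 35.0% of all tested upward and 31.8% downward. Leaving out any 1 BF-C library lowered the count to between 3447 and 3456. Scaling by a housekeeping list in place of all genes put 69.6% of the calls on the BF-C side, against 51.2%. The median log2 fold change over all tested genes was 0.23, and this is the level against which the medians below are read. The counts of each list below are likewise read against 22.2% upward and 21.2% downward. Against a 2-fold threshold, 2035 genes (12.9%) differed by more, 1087 upward (6.87%) and 948 downward (5.99%), and 827 called genes were more than 16-fold apart, 446 of them higher in BF-C. In the other direction, 1948 genes (12.3%) had a 95% confidence interval wholly within 2-fold, which rose to 4845 (30.5%) without BMSC-CT replicate 3. For the genes named below, likeness within 2-fold was read under the TMM scaling and can depend on it. With the housekeeping list the median log2 fold change over all tested genes was 0.77. The groups did not overlap at 10515 genes (66.4%). For 7139 genes neither a difference nor likeness within 2-fold was shown.

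The most abundant transcripts overlapped in part. Per length (TPM, a share of transcripts recomputed from reads and the deposited gene lengths), 47 of the 100 highest genes were shared. TPM values are not TMM-scaled, so their ratios can differ from the log2 fold changes. Type I collagen chain Col1a1 had a level of 17474 ± 282 TPM (SD, n = 3) in BF-C and 1621 ± 769 TPM in BMSC-CT. Sparc, a collagen-binding matricellular glycoprotein, had 11584 ± 166 and 3170.3 ± 1333 TPM. In BMSC-CT the ferritin light chain Ftl1, an iron-storage subunit, stood at 37857 ± 12995 TPM, against 4864 ± 141 TPM in BF-C. Lysozyme 2 (Lyz2), a bactericidal enzyme of myeloid cells, had 9459.7 ± 3040.1 TPM in BMSC-CT and 4.91 ± 0.492 TPM in BF-C. With 1 library left out, the largest adjusted p was 0.068 for Sparc (without BF-C replicate 1). In those fits, the log2 fold change spanned -4.46 to -3.30 for Ftl1.

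Fibrillar collagens, the fibres of scar and connective tissue, were higher in the fibrotic chondrocytes: 9 of 10 genes differed upward, none downward (6 to 10 upward with 1 library left out), against 22.2% upward of all tested genes, and the median log2 fold change was 2.31. For Col1a1, the BMSC-CT libraries held 137553, 125909 and 116638 scaled reads and the BF-C libraries 706246, 713438 and 700718. The BF-C libraries lay within a narrow range, all above every BMSC-CT library, and the log2 fold change was 2.48 (SE 0.19, adjusted p = 3.6e-04). Its share of all reads was 4.75% in BF-C and 0.667% in BMSC-CT. For Col3a1, the BMSC-CT libraries held 12772, 11194 and 10748 scaled reads and the BF-C libraries 110609, 108140 and 110350, with no overlap and a log2 fold change of 3.25 (SE 0.15, adjusted p = 7.9e-05). Type III collagen forms the fine fibres of early scar. The second chain of type I collagen, Col1a2, did not pass: it had 36921, 14107 and 14267 scaled reads in BMSC-CT and 45012, 58018 and 34837 in BF-C, so that BMSC-CT replicate 1 exceeded BF-C replicate 3, with a log2 fold change of 1.20 (SE 0.43, adjusted p = 0.065). Type V and XI chains, which set fibril diameter, were also higher, Col5a1 by 3.07 on the log2 scale and Col11a1 by 2.14. Col27a1, a cartilage fibrillar collagen, was higher by 4.60 on the log2 scale. Leaving out libraries in turn, Col1a2 passed without BMSC-CT replicate 1 (adjusted p = 0.008). It also passed without BMSC-CT replicate 3, and in both fits all 10 genes were higher in BF-C.

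**Figure D2:**
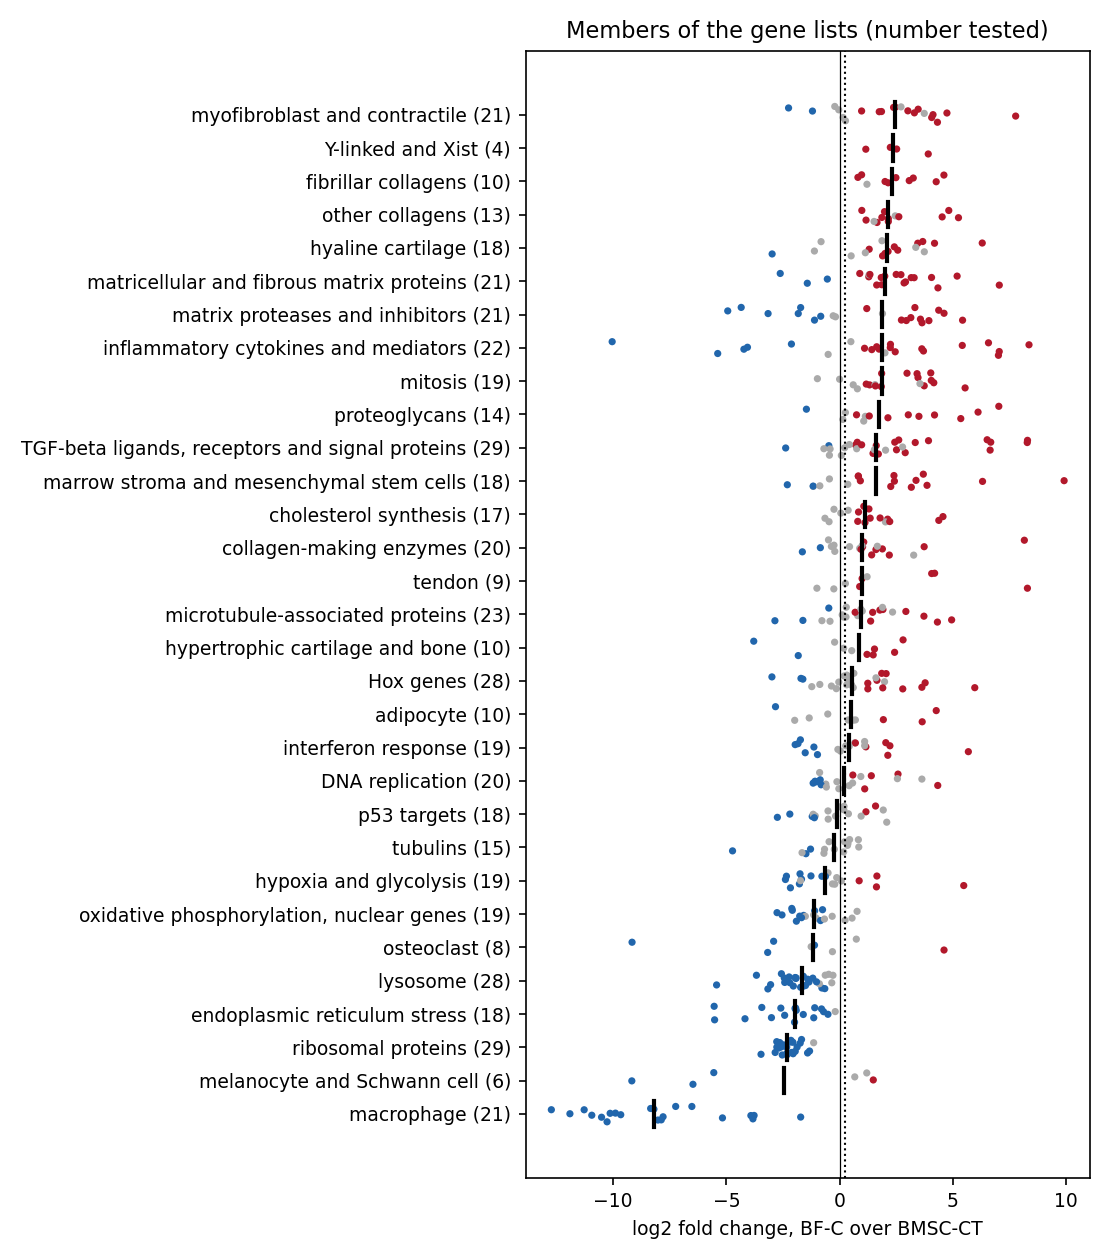
Log2 fold change (BF-C over BMSC-CT) of every tested member of the gene lists shown. The endothelial list, the list of lymphoid, erythroid and granulocyte genes and the housekeeping list are left out. Red points differed upward in BF-C, blue upward in BMSC-CT, grey did not pass, black bars are list medians and the dotted line is the median of all tested genes, 0.23. Collagen lists lie to the right, and the macrophage, lysosome, endoplasmic reticulum stress and ribosomal lists to the left.

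The same held for the non-fibrillar collagens, where 11 of 13 genes were higher in BF-C, none lower, with a median of 2.15. Col12a1 coats type I fibrils and bears on tissue stiffness; it had 7564, 6261 and 3144 scaled reads in BMSC-CT and 153713, 148723 and 145755 in BF-C. The groups did not overlap, and the log2 fold change was 4.82 (SE 0.34, adjusted p = 2.7e-04). Col8a1, a short-chain network collagen, and Col14a1, a fibril-associated collagen, were higher by 5.24 on the log2 scale and 4.52. The basement membrane chain Col4a1 was higher by 1.98 on the log2 scale. Its partner Col4a2 did not pass (adjusted p = 0.064), with 17075, 16765 and 1842 scaled reads in BMSC-CT and 44993, 43814 and 43877 in BF-C: BMSC-CT replicate 3 lay far below the other BMSC-CT libraries. Across the 6 leave-one-out fits, Col4a2 passed without BMSC-CT replicate 3 (adjusted p = 1.0e-06).

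Enzymes that fold, trim and crosslink collagen did not move as a block. Of 20 genes, 9 were higher in BF-C (8 to 14 with 1 library left out), 2 were lower (1 to 4) and 9 did not pass. Over all genes, 22.2% were higher and 21.2% lower. Lysyl oxidase (Lox), which crosslinks collagen and elastin, showed one of the widest gaps, with 201, 208 and 118 scaled reads in BMSC-CT and 49094, 47669.5 and 49574 in BF-C. Every BF-C library was far above every BMSC-CT library, and the log2 fold change was 8.15 (SE 0.25, adjusted p = 2.8e-05). The prolyl 4-hydroxylase subunit P4ha3 was higher by 3.73 on the log2 scale, and Adamts2, which removes the amino propeptide of procollagen, by 2.19. The collagen chaperone Serpinh1 (HSP47), by contrast, stayed within 2-fold, with a log2 fold change of -0.49 and a 95% interval of -0.91 to -0.08. Lysyl hydroxylase Plod3 and the lysyl oxidase relative Loxl1 also lay within 2-fold, at -0.37 on the log2 scale (-0.78 to 0.05) and -0.25 (-0.64 to 0.14). Ppib, a prolyl isomerase of the endoplasmic reticulum, was lower in BF-C, at -1.65 on the log2 scale (SE 0.45, adjusted p = 0.029). When single libraries were omitted, the largest adjusted p was 0.093 for Ppib (without BF-C replicate 2). In those fits, Serpinh1 passed without BMSC-CT replicate 3 (adjusted p = 0.0032) and Plod3 passed without BMSC-CT replicate 1 (adjusted p = 0.044).

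Matricellular and fibrous matrix proteins were mostly higher in BF-C: 17 of 21 differed upward, 3 downward, and the median was 1.99. Thrombospondin 1 (Thbs1) can release TGF-β from its latent complex. It had 514, 413 and 53.8 scaled reads in BMSC-CT and 29749.5, 30805 and 29452 in BF-C, with no overlap and a log2 fold change of 7.05 (SE 0.84, adjusted p = 0.0018). Periostin (Postn), a fibrosis-linked adhesion protein, had 15984, 12805 and 10908 scaled reads in BMSC-CT and 95761, 92058 and 93571 in BF-C and a log2 fold change of 2.84 (SE 0.19, adjusted p = 2.2e-04). Fibronectin (Fn1) was higher by 1.84 on the log2 scale (SE 0.38, adjusted p = 0.013) and Sparc by 0.89 (SE 0.16, adjusted p = 0.0084). The gene for CTGF itself (Ctgf) had 4168, 4029 and 3379 scaled reads in BMSC-CT and 9706, 9355 and 10056 in BF-C, higher in all BF-C libraries, with a log2 fold change of 1.34 (SE 0.15, adjusted p = 0.0013). Its relative Cyr61, another early target of mechanical and TGF-β signals, was higher by 4.34 on the log2 scale. Nov, a further family member, ran the other way, with 29116, 24045 and 16196 scaled reads in BMSC-CT and 8148, 8399 and 8478 in BF-C and a log2 fold change of -1.43 (SE 0.24, adjusted p = 0.0061). TGF-β-induced protein (Tgfbi), an adhesion protein also made by macrophages, was lower in BF-C by the same test, at -2.62 on the log2 scale (SE 0.30, adjusted p = 0.0016). In fits on 5 libraries, the largest adjusted p was 0.06 for Fn1 (without BF-C replicate 2) and 0.068 for Sparc (without BF-C replicate 1). There, the log2 fold change spanned 6.04 to 7.64 for Thbs1.

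Proteoglycans, the sugar-bearing proteins that space collagen fibrils and hold water, were higher for 9 of 14 genes and lower for 1. Versican (Vcan), a large hyaluronan-binding proteoglycan of provisional matrix, had 314, 242 and 177 scaled reads in BMSC-CT and 16283, 16396 and 16770.4 in BF-C and a log2 fold change of 6.11 (SE 0.23, adjusted p = 4.5e-05). The hyaluronan synthase Has2 was higher by 7.03 on the log2 scale and lumican (Lum), a small leucine-rich proteoglycan, by 3.50. Biglycan (Bgn) was alike: it had 76087, 81160.1 and 75081 scaled reads in BMSC-CT and 86253, 83711 and 86062 in BF-C, and its log2 fold change of 0.14 had an interval of -0.24 to 0.52. Fibromodulin (Fmod) was alike too, at 0.25 on the log2 scale (-0.05 to 0.56). This likeness depends on how the libraries were scaled. Across the scalings, the TMM scaling included, the log2 fold change of Bgn ran from 0.14 to 0.72 and that of Fmod from 0.25 to 0.83. Per length the gap of Bgn was wider, with 2341 ± 995 TPM in BMSC-CT and 5065.5 ± 52.6 TPM in BF-C. Glypican 1 (Gpc1), a membrane-bound heparan sulfate carrier, was lower in BF-C, at -1.47 on the log2 scale (SE 0.13, adjusted p = 6.2e-04). Omitting any 1 library, Fmod passed without BMSC-CT replicate 3 (adjusted p = 0.0041).

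**Figure D3:**
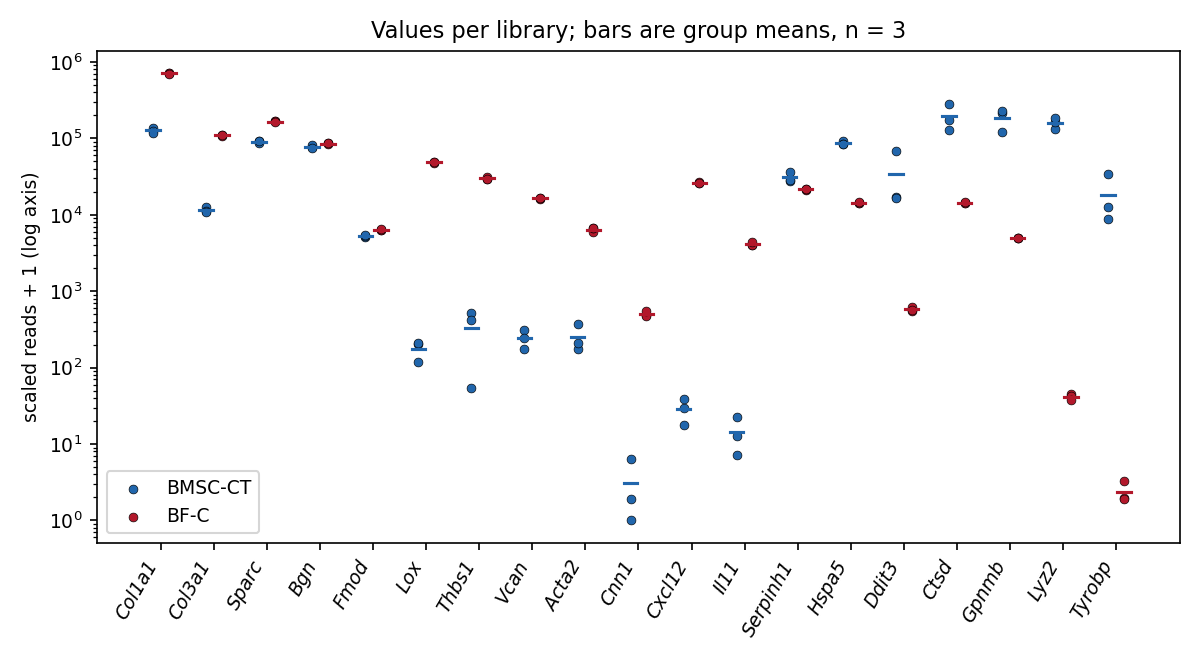
Scaled reads (plus 1, log axis) in each of the 6 libraries for 19 genes, with BMSC-CT and BF-C libraries in separate colours. The BF-C points of each gene lie close together, while BMSC-CT replicate 3 is often apart from replicates 1 and 2.

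Gene length moved with these differences: across genes, the Spearman correlation of the log2 fold change with length was 0.268, and 0.184 without BMSC-CT replicate 3. Many matrix genes are long. With the length trend removed from each library, 7020 genes (44.4%) differed, 18.9% of all tested upward and 25.5% downward. The log2 fold change was then 1.45 for Col1a1, 2.39 for Col3a1, 3.27 for Col12a1, 7.29 for Lox and 4.50 for Vcan, each still passing and smaller than above. Fibronectin and Adamts2 no longer passed, with adjusted p = 0.14 for Fn1 and 0.089 for Adamts2. Upward calls then numbered 6 of 10 fibrillar collagens, 8 of 13 other collagens, 4 of 20 collagen-making enzymes and 17 of 21 matricellular proteins. Among lists described below, they numbered 2 of 10 for hypertrophic cartilage and bone, 3 of 9 for tendon, 6 of 23 for microtubule-associated proteins and 7 of 17 for cholesterol synthesis, while Sox9 and Runx2 did not pass (adjusted p = 0.18 and 0.071). The part of length in these results was not tested further.

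The hyaline cartilage markers listed in both deposited tables together made up 0.00250% of BMSC-CT reads and 0.0444% of BF-C reads. Of these, Prg4 alone, described below, held 0.00138% and 0.0311%. Of the 23 hyaline cartilage genes listed, 18 were tested, 10 were higher in BF-C and 1 lower (0 to 1 lower with 1 library left out). Aggrecan (Acan), the main cartilage proteoglycan, was listed in the BMSC table only and type II collagen (Col2a1) in the BF table only, so neither was compared. The chondrocyte master regulator Sox9 had 18.6, 18.4 and 18.4 scaled reads in BMSC-CT and 36.6, 40.1 and 71.0 in BF-C. Its level was low in all 6 libraries but higher in each BF-C library, with a log2 fold change of 1.30 (SE 0.37, adjusted p = 0.032). Lubricin (Prg4), the boundary lubricant of the joint surface, had 299, 269 and 201 scaled reads in BMSC-CT and 4592, 4545 and 4750.1 in BF-C and a log2 fold change of 4.19 (SE 0.19, adjusted p = 7.5e-05). The type IX collagen chain Col9a2 was higher by 3.45 on the log2 scale, and the Wnt antagonist Frzb by 6.29. Cartilage oligomeric matrix protein (Comp) did not pass, with 16.8, 31.4 and 18.4 scaled reads in BMSC-CT and 8.39, 15.3 and 6.21 in BF-C (adjusted p = 0.099). Ucma, a secreted cartilage protein, was lower in BF-C: it had 4.66, 9.74 and 21.5 scaled reads in BMSC-CT and 0, 0 and 1.77 in BF-C. Among 10 hypertrophic cartilage and bone genes, 5 were higher (1 to 5 with 1 library left out) and 2 lower, against 22.2% and 21.2% of all genes. Osteopontin (Spp1), made by bone cells and macrophages alike, had 14482, 14733 and 14700.1 scaled reads in BMSC-CT and 1004, 1037 and 1127 in BF-C, with no overlap and a log2 fold change of -3.79 (SE 0.13, adjusted p = 3.5e-05). Runx2, the bone and hypertrophy regulator, was higher in BF-C by 1.54 on the log2 scale. Of 9 tendon genes, 5 were higher and 0 lower (3 to 7 higher and 0 to 1 lower with 1 library left out). Dermatopontin (Dpt), which binds decorin, was higher by 8.29 on the log2 scale (SE 0.27, adjusted p = 3.3e-05). The tendon regulator Scx did not pass (log2 fold change -0.26, interval -1.12 to 0.61). Another tendon regulator, Mkx, had 0 reads in every BMSC-CT library. It was at least 15.8-fold higher in BF-C, with the BMSC-CT level set at 3 reads over the group. Of the fits lacking 1 library, the largest adjusted p was 0.12 for Sox9 (without BF-C replicate 3), 0.073 for Ucma (without BF-C replicate 1) and 0.063 for Runx2 (without BF-C replicate 2).

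Contractile genes of myofibroblasts were higher in BF-C for 13 of 21 members, lower for 2 (0 to 3 with 1 library left out) and without a pass for 6. Smooth muscle actin (Acta2) had 175, 212 and 369 scaled reads in BMSC-CT and 5903, 6660 and 6668 in BF-C. All BF-C libraries were far above all BMSC-CT libraries, with a log2 fold change of 4.74 (SE 0.29, adjusted p = 1.8e-04). Calponin 1 (Cnn1), a smooth muscle actin-binding protein, had 0.932, 5.41 and 0 scaled reads in BMSC-CT and 493, 470.3 and 551 in BF-C, close to the detection floor in BMSC-CT. Transgelin (Tagln) was higher by 4.12 on the log2 scale, the regulatory light chain Myl9 by 3.30 and caldesmon (Cald1) by 4.06. The calponin Cnn3, which is not restricted to smooth muscle, lay within 2-fold at 0.15 on the log2 scale (-0.15 to 0.46). The intermediate filament genes vimentin (Vim) and desmin (Des) were lower in BF-C, at -1.20 on the log2 scale (SE 0.23, adjusted p = 0.01) and -2.26 (SE 0.46, adjusted p = 0.012). Vimentin is made by mesenchymal cells and macrophages alike. On 5 of the 6 libraries, the largest adjusted p was 0.055 for Vim (without BF-C replicate 1) and 0.055 for Des (without BF-C replicate 3). There, the log2 fold change spanned 7.22 to 8.53 for Cnn1. Over the same fits, Cnn3 passed without BMSC-CT replicate 3 (adjusted p = 0.049).

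Among 29 genes of the TGF-β pathway, 17 were higher in BF-C (11 to 22 with 1 library left out), 2 were lower (1 to 7) and 4 lay within 2-fold, against 12.3% of all genes. Without BMSC-CT replicate 3, 8 lay within 2-fold, against 30.5% of all genes. Of the ligands, Tgfb1 was lower in BF-C, with 8226, 10430.4 and 14437 scaled reads in BMSC-CT and 1986, 2054 and 2132 in BF-C, no overlap and a log2 fold change of -2.38 (SE 0.23, adjusted p = 7.9e-04). Tgfb2 was higher at 2.51 on the log2 scale (SE 0.27, adjusted p = 0.0013), and Tgfb3 lower by a small margin at -0.48 (SE 0.14, adjusted p = 0.034), a direction that turned under the housekeeping scaling (0.10). The receptors Tgfbr1 and Tgfbr2 did not pass; Tgfbr2 had 8148, 6888 and 603 scaled reads in BMSC-CT and 3516, 3330 and 3369.9 in BF-C, so that BMSC-CT replicate 3 was below and replicates 1 and 2 were above every BF-C library. The latent TGF-β binding protein Ltbp2, a matrix protein of elastic fibres, was higher by 3.92 on the log2 scale. Among targets, the inhibitory Smad7, which shuts the receptor down, was higher by 2.89 on the log2 scale, and Pmepa1, a further feedback inhibitor, by 1.71. Among the widest gaps was that of gremlin 1 (Grem1), a secreted antagonist of bone morphogenetic proteins (BMPs), with 242, 176 and 131 scaled reads in BMSC-CT and 56574, 54311 and 56888 in BF-C and a log2 fold change of 8.29 (SE 0.24, adjusted p = 2.8e-05). Its binding partners Bmp2 and Bmp4 were higher as well, by 8.28 on the log2 scale and 6.51, as was the activin chain Inhba by 6.67. After dropping single libraries, the largest adjusted p was 0.13 for Tgfb3 (without BF-C replicate 1), 0.059 for Smad7 (without BF-C replicate 1) and 0.088 for Inhba (without BF-C replicate 3). Over the same fits, the log2 fold change spanned 2.16 to 3.36 for Smad7, 7.28 to 8.83 for Bmp2, 5.72 to 7.19 for Bmp4 and 4.50 to 7.88 for Inhba. In those fits, Tgfbr2 passed without BMSC-CT replicate 3 (adjusted p = 1.2e-05).

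Matrix proteases and their inhibitors divided between the cultures: 11 of 21 were higher in BF-C and 7 higher in BMSC-CT (4 to 8 with 1 library left out). Mmp9, gelatinase B, had 2896, 3478 and 1799 scaled reads in BMSC-CT and 64207, 62432 and 65436 in BF-C and a log2 fold change of 4.61 (SE 0.26, adjusted p = 1.5e-04). Stromelysin 1 (Mmp3) was higher by 2.94 on the log2 scale and Timp1, an inhibitor of most of these enzymes, by 3.14. Mmp12, the macrophage elastase, went the other way, with 7762, 6428 and 5564 scaled reads in BMSC-CT and 198, 208 and 229 in BF-C and a log2 fold change of -4.94 (SE 0.18, adjusted p = 4.2e-05). Collagenase 3 (Mmp13), the main type II collagenase of cartilage, had 49872, 41016 and 34489 scaled reads in BMSC-CT and 11679, 11074 and 12168 in BF-C and a log2 fold change of -1.83 (SE 0.18, adjusted p = 9.6e-04). Urokinase (Plau) was lower in BF-C, at -4.35 on the log2 scale, while the tissue plasminogen activator Plat was higher, at 3.64. Gelatinase A (Mmp2) was abundant in both, with 179220, 203367 and 191443 scaled reads in BMSC-CT and 110893, 105314 and 104945 in BF-C. It was lower in BF-C at -0.84 on the log2 scale (SE 0.17, adjusted p = 0.012), an estimate that does not bound the difference within 2-fold. Per length the means lay the other way, at 4527 ± 1828 TPM in BMSC-CT and 5020 ± 154 TPM in BF-C. In the leave-one-out fits, the largest adjusted p was 0.088 for Mmp2 (without BF-C replicate 3). In those fits, the log2 fold change spanned 2.78 to 3.73 for Timp1 and -5.30 to -3.82 for Plau.

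Macrophage markers were higher in BMSC-CT throughout. All 21 tested genes of the 26 listed were higher in BMSC-CT, against 21.2% of all tested genes, in each leave-one-out fit as well, and the median log2 fold change was -8.20. Together the list took 2.62% of reads in BMSC-CT (1.99 to 3.04%) and 0.0568% in BF-C (0.0556 to 0.0576%). The untreated BMSC-C libraries held 1.80% and the BF-D libraries 0.0632%, so that both groups of each deposited table fell on the same side. In bulk RNA, fewer cells of a type and less RNA per cell cannot be told apart. For Lyz2, the BMSC-CT libraries held 133743, 164707 and 183196 scaled reads and the BF-C libraries 44.2, 41.0 and 36.4. The log2 fold change was -11.91 (SE 0.18, adjusted p = 8.2e-06). Cd68, an endosomal glycoprotein of macrophages, had 10657, 13730.1 and 19117 scaled reads in BMSC-CT and 94.6, 82.0 and 101 in BF-C and a log2 fold change of -7.24 (SE 0.25, adjusted p = 3.5e-05). The colony stimulating factor 1 receptor Csf1r, on which macrophage survival depends, had 3382, 3936 and 2856 scaled reads in BMSC-CT and 22.9, 9.54 and 10.6 in BF-C. Mannose receptor 1 (Mrc1) was at 0 reads in every BF-C library and held 3435, 2973 and 746 in BMSC-CT, which is at least 2771-fold lower in BF-C with 3 reads over the group as the floor. Gpnmb, a glycoprotein of phagocytes and pigment cells, had 211506, 227339 and 119759 scaled reads in BMSC-CT and 4932, 4996 and 4959 in BF-C, the highest level of the list in BF-C. The components of complement C1q and Cd163 were listed in the BMSC table only and were not compared. With each library omitted in turn, the log2 fold change spanned -11.75 to -10.52 for Mrc1.

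Promoter sequence was read for the macrophage genes because they shifted together. Of the 21 tested genes, 15 had a promoter among the RefSeq sequences used (build GRCr8), and 14 of these held the letters GAGGAA, the core bound by PU.1 (the product of Spi1, which specifies macrophages), on either strand in the 250 bases before the start. Of all 33469 such windows, 23.3% held it. The motif was chosen after the values were seen, and a match describes letters, not binding. Of the markers with a match, the stretches of Lyz2 and Cd68 are shown as examples, Lyz2 at chr7:54798022-54798087 (minus strand) and Cd68 at chr10:54882442-54882498 (minus strand), each 5′ to 3′ on the gene's strand with the match in capitals; in Cd68 the match is to the opposite strand.
Lyz2: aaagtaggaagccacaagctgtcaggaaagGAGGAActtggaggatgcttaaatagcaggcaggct
Cd68: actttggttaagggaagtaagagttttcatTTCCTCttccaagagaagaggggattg
Spi1 itself had 4963, 6602 and 12823 scaled reads in BMSC-CT and 29.7, 19.1 and 25.7 in BF-C.

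Lysosomal genes followed the same direction. Of 28 genes, 23 were higher in BMSC-CT, none in BF-C, with a median of -1.67, and the list made up 4.56% of BMSC-CT reads and 1.21% of BF-C reads, beside 2.36% for BMSC-C. Cathepsin D (Ctsd), the main aspartic protease of lysosomes, had 129300, 172037 and 279942 scaled reads in BMSC-CT and 14206, 14433 and 14593 in BF-C, with no overlap and a log2 fold change of -3.67 (SE 0.30, adjusted p = 4.4e-04). Prosaposin (Psap), the precursor of sphingolipid activators, was at -2.43 on the log2 scale (SE 0.17, adjusted p = 2.6e-04), and cathepsin Z (Ctsz) at -5.43 (SE 0.31, adjusted p = 1.4e-04). The lysosomal hydrolase Gusb did not pass (adjusted p = 0.088). Lysosomal enzymes are made by all cells and in large amounts by macrophages. The summed macrophage list, given above, moved with them, and its part in this result was not tested. Osteoclast genes went both ways: of 8, 4 were higher in BMSC-CT, among them the acid phosphatase Acp5 at -2.92 on the log2 scale and the proton pump subunit Atp6v0d2, which had 722, 677 and 975 scaled reads in BMSC-CT and 1.53, 0 and 0 in BF-C. The 1 higher in BF-C was Mmp9, at 4.61 on the log2 scale, and the summed list made up 0.448% of BF-C reads and 0.0533% of BMSC-CT reads, with Mmp9 alone at 0.431% and 0.0148%. Where 1 library was dropped, Gusb passed without BMSC-CT replicate 3 (adjusted p = 0.005).

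Genes of the endoplasmic reticulum stress response, which raises chaperone supply when unfolded protein builds up, were higher in BMSC-CT. Of 18 genes, 17 passed in that direction (14 to 18 with 1 library left out), none in the other, and the median was -1.96. The list made up 2.08% of BMSC-CT reads and 0.680% of BF-C reads, beside 0.729% for BMSC-C and 0.730% for BF-D. The untreated BMSCs thus lay near BF-C on this list, unlike on the macrophage list. BiP (Hspa5), which binds unfolded chains in that compartment, had 93169.8, 83131 and 84443 scaled reads in BMSC-CT and 14354, 14191 and 14482 in BF-C and a log2 fold change of -2.60 (SE 0.14, adjusted p = 1.3e-04). CHOP (Ddit3), a transcription factor of prolonged stress, had 17326, 16753 and 68054 scaled reads in BMSC-CT and 547, 629 and 566 in BF-C and a log2 fold change of -5.54 (SE 0.55, adjusted p = 9.4e-04). BMSC-CT replicate 3 was the highest library for Ddit3, but replicates 1 and 2 also lay far above BF-C. Its target Trib3, a pseudokinase, was at -5.52 on the log2 scale (SE 0.27, adjusted p = 9.4e-05). The lectin chaperone calnexin (Canx) did not pass (log2 fold change -0.20, interval -0.88 to 0.49), and asparagine synthetase (Asns), a target of the amino acid arm of the response, had a small difference at -0.52 (SE 0.14, adjusted p = 0.029) that turned under the housekeeping scaling (0.06). Among leave-one-out fits, the largest adjusted p was 0.12 for Asns (without BF-C replicate 1). In those fits, the log2 fold change spanned -5.87 to -4.85 for Ddit3. There, Canx passed without BMSC-CT replicate 3 (adjusted p = 0.0026).

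The promoters of these genes hold a known letter pattern, shown here because the chaperone genes shifted together. The endoplasmic reticulum stress response element, the letters CCAAT and CCACG with 9 bases of any kind between them, lay on either strand of the 250 bases before the start in 7 of the 15 matched promoters of the 18 tested genes, and in 22 of all 33469 windows, or 0.0657% (RefSeq, build GRCr8). The element was chosen after the values were seen. It also occurred in the promoter of Canx, which did not pass. The stretches lie at chr3:38452943-38453015 (plus strand) for Hspa5, chr7:23012421-23012499 (minus strand) for Hsp90b1, chr19:40213117-40213183 (plus strand) for Calr, chr7:121789209-121789287 (plus strand) for Creld2 and chr10:35158039-35158107 (minus strand) for Canx. Each is printed 5′ to 3′ on the gene's strand with the match in capitals, and for Calr and Creld2 the match is to the opposite strand. Hsp90b1 held a further match on the opposite strand, 72 bases before the start and outside the stretch shown.
Hspa5: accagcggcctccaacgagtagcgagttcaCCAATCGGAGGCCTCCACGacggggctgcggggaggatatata
Hsp90b1: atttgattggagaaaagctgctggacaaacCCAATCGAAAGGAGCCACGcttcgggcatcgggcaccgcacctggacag
Calr: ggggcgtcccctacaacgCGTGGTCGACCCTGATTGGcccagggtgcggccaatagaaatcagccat
Creld2: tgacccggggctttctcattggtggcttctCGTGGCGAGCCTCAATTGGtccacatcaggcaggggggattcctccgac
Canx: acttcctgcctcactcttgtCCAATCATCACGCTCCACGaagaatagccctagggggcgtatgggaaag
Hsp90b1 (GRP94) and calreticulin (Calr) both fold glycoproteins in the endoplasmic reticulum, and they were lower in BF-C at -1.94 on the log2 scale (SE 0.15, adjusted p = 3.6e-04) and -1.99 (SE 0.24, adjusted p = 0.0019). Creld2, a secreted stress protein, was at -3.44 on the log2 scale (SE 0.21, adjusted p = 1.6e-04).

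Of 22 inflammatory mediators, 14 were higher in BF-C, against 22.2% of all genes, and 5 in BMSC-CT (3 to 6 with 1 library left out). Interleukin 11 (Il11), a stromal cytokine linked to fibrosis, had 21.4, 11.9 and 6.15 scaled reads in BMSC-CT and 4065, 4077 and 4404 in BF-C, and a log2 fold change of 8.36 (SE 0.42, adjusted p = 1.0e-04). Interleukin 6 (Il6) had 12.1, 34.6 and 24.6 scaled reads in BMSC-CT and 2937, 2999 and 2891 in BF-C, and cyclooxygenase 2 (Ptgs2), the inducible enzyme of prostaglandin synthesis, had 253, 263 and 52.3 scaled reads in BMSC-CT and 14975, 13874 and 14722 in BF-C. All 3 were far lower in every BMSC-CT library than in any BF-C library. Their levels in untreated BMSCs were 854 ± 137 TPM for Il11, 539.7 ± 78.2 TPM for Il6 and 545 ± 169.6 TPM for Ptgs2. In BF-C they were 356 ± 14.6, 405 ± 10.4 and 478 ± 16.2 TPM. The 3 genes were thus low in BMSC-CT and not in BMSC-C. The chemokine Ccl5 was higher in BF-C by 7.04 on the log2 scale and the neutrophil chemokine Cxcl6 by 2.45. Interleukin 1 beta (Il1b), made mainly by myeloid cells, had 9609, 11897 and 17494 scaled reads in BMSC-CT and 10.7, 8.58 and 14.2 in BF-C and a log2 fold change of -10.04 (SE 0.30, adjusted p = 2.8e-05). Tumour necrosis factor (Tnf) and the macrophage chemokines Ccl3 and Ccl4 were also lower in BF-C, at -4.23 on the log2 scale, -4.07 and -5.38; Tnf did not pass with edgeR (adjusted p = 0.052). The macrophage list was lower in BF-C as well, and its part in these 4 genes was not tested. Interferon response genes went both ways. Of 19, 6 were higher in BF-C (3 to 8 with 1 library left out) and 6 higher in BMSC-CT, against 22.2% and 21.2% of all genes. Examples are the antiviral GTPase Mx2 at 5.68 on the log2 scale and the interferon regulator Irf7 at -1.84. With 1 library left out, the largest adjusted p was 0.099 for Tnf (without BF-C replicate 2). There, the log2 fold change spanned 5.83 to 6.98 for Ptgs2, -5.27 to -3.65 for Tnf and 4.50 to 6.67 for Mx2.

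Markers of marrow stroma were higher in BF-C for 12 of 18 genes (7 to 13 with 1 library left out) and lower for 2 (1 to 5). Cxcl12, the chemokine by which marrow stroma holds blood stem cells, had 28.9, 37.9 and 16.9 scaled reads in BMSC-CT and 26380.2, 26635 and 26238 in BF-C. It was the widest gap of the list, at 9.91 on the log2 scale (SE 0.30, adjusted p = 2.8e-05). Kit ligand (Kitlg), a further niche factor, was higher by 6.31 on the log2 scale, the surface antigen Thy1 by 2.40 and the mesenchymal receptor Pdgfra by 3.16. The hyaluronan receptor Cd44, carried by stroma and leukocytes, was lower, at -1.17 on the log2 scale (SE 0.26, adjusted p = 0.016). Among 10 adipocyte genes, lipoprotein lipase (Lpl) was higher in BF-C by 4.26 on the log2 scale and the regulator Cebpa lower, at -2.83 (SE 0.16, adjusted p = 1.3e-04), while Pparg, the master regulator of fat cells, did not pass (adjusted p = 0.098). Leaving out libraries in turn, the largest adjusted p was 0.067 for Cd44 (without BF-C replicate 1). Over the same fits, the log2 fold change spanned 5.31 to 6.91 for Kitlg.

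Most mitosis genes were higher in the fibrotic chondrocytes. Of 19, 13 were higher in BF-C, against 22.2% of all genes, and none lower (9 to 16 higher and 0 to 1 lower with 1 library left out), and the median was 1.85, all at low read counts. The centromere protein Cenpf had 1.86, 2.16 and 0 scaled reads in BMSC-CT and 96.1, 96.3 and 94.9 in BF-C, and topoisomerase Top2a, which untangles chromosomes, had 19.6, 2.16 and 13.8 scaled reads in BMSC-CT and 162, 167 and 199 in BF-C. Aurora kinase A (Aurka) did not pass and lay lower in BF-C, at -0.98 on the log2 scale (adjusted p = 0.087). Of 20 DNA replication genes, 5 were higher and 5 lower (2 to 8 higher and 1 to 8 lower with 1 library left out), near the 22.2% and 21.2% of all genes, with the helicase subunits Mcm4 and Mcm2 at 2.58 on the log2 scale and -1.03. Of 18 targets of p53, 2 were higher and 4 lower in BF-C (2 to 6 higher and 3 to 9 lower with 1 library left out), against 22.2% and 21.2% of all genes. The sign of the list median changed with the scaling for both, 0.19 here and -0.17 under quantile scaling for DNA replication, -0.11 here and 0.47 under the housekeeping scaling for p53 targets. Gadd45a, a growth arrest gene, had 9231, 7338 and 10712 scaled reads in BMSC-CT and 1268, 1371 and 1368 in BF-C, and a log2 fold change of -2.75 (SE 0.18, adjusted p = 2.1e-04). Across the 6 leave-one-out fits, the log2 fold change spanned 3.35 to 4.68 for Top2a. In those fits, Aurka passed without BMSC-CT replicate 3 (adjusted p = 0.047).

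Microtubule genes were described because the study's title concerns microtubule stabilisation. Of 15 tubulins, none was higher in BF-C (0 to 3 with 1 library left out) and 3 were higher in BMSC-CT (1 to 4), against 22.2% and 21.2% of all genes. Within 2-fold lay 4 tubulins, against 12.3% of all genes, and 9 on the 5 libraries that leave out BMSC-CT replicate 3, against 30.5%. The tubulin median was -0.24, and 0.34 under the housekeeping scaling. The abundant beta tubulin Tubb6 lay within 2-fold, with 1604, 1833 and 1534 scaled reads in BMSC-CT and 1905, 1971 and 1891 in BF-C (-0.13 to 0.56). Tuba8 was the tubulin with the widest gap, with 121, 162 and 206 scaled reads in BMSC-CT and 3.05, 7.63 and 5.32 in BF-C and a log2 fold change of -4.73 (SE 0.42, adjusted p = 6.0e-04). Among 23 microtubule-associated proteins, 9 were higher in BF-C (3 to 14 with 1 library left out) and 3 lower (2 to 5), against the same 22.2% and 21.2%. The destabiliser stathmin 1 (Stmn1) had 1321, 1335 and 3321 scaled reads in BMSC-CT and 256, 279 and 212 in BF-C and a log2 fold change of -2.86 (SE 0.39, adjusted p = 0.0031), and the doublecortin-like kinase Dclk1, which binds microtubules, was higher by 4.31 (SE 0.25, adjusted p = 1.5e-04).

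Metabolic lists also differed. Cholesterol synthesis genes were higher in BF-C for 11 of 17 members, none lower (0 to 1 lower with 1 library left out), with a median of 1.12. HMG-CoA synthase (Hmgcs1) had 347, 207 and 189 scaled reads in BMSC-CT and 4774, 5023 and 5115 in BF-C and a log2 fold change of 4.38 (SE 0.26, adjusted p = 1.6e-04), and the isomerase Idi1 was higher by 4.56. Of 19 hypoxia and glycolysis genes, 9 were higher in BMSC-CT (6 to 14 with 1 library left out) and 4 in BF-C (2 to 4). Over all genes the shares were 21.2% and 22.2%. Phosphofructokinase Pfkp was at -2.39 on the log2 scale and aldolase Aldoa at -2.35. The hypoxia-responsive peptide adrenomedullin (Adm) went the other way, with 96.9, 101 and 103 scaled reads in BMSC-CT and 4465, 4514 and 4531 in BF-C and a log2 fold change of 5.48 (SE 0.14, adjusted p = 2.6e-05). Lactate dehydrogenase Ldha lay within 2-fold at -0.13 on the log2 scale (-0.47 to 0.21). For 19 nuclear genes of oxidative phosphorylation, 11 were higher in BMSC-CT, and this ranged over 2 to 15 with 1 library left out. Ribosomal protein genes were higher in BMSC-CT for 28 of 29, 8 to 28 with 1 library left out. Cox4i1, a cytochrome oxidase subunit, had 10538, 14759 and 51384 scaled reads in BMSC-CT and 2848, 2913 and 3059 in BF-C, and Rplp0, of the ribosomal stalk, had 59917, 77624 and 270850 scaled reads in BMSC-CT and 15165, 14972 and 14862 in BF-C. In both genes BMSC-CT replicate 3 was well above replicates 1 and 2, which in turn were above BF-C. When single libraries were omitted, the largest adjusted p was 0.053 for Cox4i1 (without BF-C replicate 2). There, the log2 fold change spanned -3.23 to -2.06 for Cox4i1 and -3.27 to -2.16 for Rplp0.

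At the other end stood the genes most alike in the cultures, named by the rule that their 95% interval lay closest to 0 among well-read genes. The splicing factor subunit Sf3b3 had 1415, 1529.8 and 1327 scaled reads in BMSC-CT and 1508, 1441 and 1348 in BF-C, with a log2 fold change of 0.01 (-0.34 to 0.36). The co-chaperone Stip1 had -0.02 (-0.35 to 0.31), the actin-nucleating Actr3 -0.02 (-0.37 to 0.33) and the thyroid hormone receptor Thra -0.01 (-0.35 to 0.33). Because the members were picked for small intervals, these values are a description. They also move with the scaling: across the scalings, the TMM scaling included, Sf3b3 ran from 0.01 to 0.59 and Stip1 from -0.02 to 0.56. Actin beta (Actb), a common reference gene, did not pass and had an interval of -0.46 to 0.66, whereas Gapdh, another, was lower in BF-C at -1.27 on the log2 scale (SE 0.34, adjusted p = 0.028). Of the 24 housekeeping genes listed for scaling, 12 were higher in BMSC-CT (2 to 17 with 1 library left out) and 1 in BF-C. In fits on 5 libraries, the largest adjusted p was 0.095 for Gapdh (without BF-C replicate 2).

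Reference to the other libraries shows how far each difference followed the deposited table. Of the 6871 called genes, 3275 (47.7%) separated all 6 BMSC from all 6 BF libraries. Where they did, treated and untreated groups of each table lay together, and culture and table cannot be told apart. Type I collagen is one such gene: Col1a1 stood at 475 ± 49.5 TPM in untreated BMSCs and at 1621 ± 769 TPM after the growth factors. Its level was 17474 ± 282 TPM in the fibrotic chondrocytes and 13638 ± 2435 TPM with docetaxel. Fibrillar collagens together made up 0.340% of the reads of BMSC-C and 0.971% of those of BMSC-CT, as against 6.20% for BF-C and 5.16% for BF-D. The share was higher in BMSC-CT than in BMSC-C and higher still in BF-C. Contractile genes made up 0.815% of the reads of BMSC-C, 0.483% for BMSC-CT and 0.896% for BF-C, and TGF-β pathway genes 0.849%, 0.193% and 1.00%. In the summed share of these lists, as of the inflammatory list (2.08%, 0.409% and 1.80%), BMSC-CT was the low group and untreated BMSCs lay nearer BF-C. The same held for proteoglycans (1.52%, 0.682% and 1.54%), matrix proteases (2.79%, 1.82% and 2.44%) and marrow stroma (0.560%, 0.278% and 0.768%). For the non-fibrillar collagens (0.827%, 0.231% and 2.04%) BMSC-CT was also low, but untreated BMSCs lay nearer BMSC-CT. The sums do not hold for every member. Called genes that separated all BMSC from all BF libraries were 13 of 21 contractile, 11 of 29 TGF-β pathway and 7 of 22 inflammatory genes. Acta2 had 36.5 ± 11.7 TPM in untreated BMSCs, 11.7 ± 1.27 TPM in BMSC-CT and 664 ± 46.6 TPM in BF-C. Grem1 had 1416 ± 340.4 TPM in untreated BMSCs, 3.78 ± 2.41 TPM in BMSC-CT and 2114 ± 38.7 TPM in BF-C, and Lox had 219.9 ± 48.8, 2.87 ± 1.67 and 1461 ± 19.4. For Cyr61 and Mmp3 the untreated BMSCs lay above BF-C. Cyr61 had 438 ± 17.7 TPM in untreated BMSCs, 5.49 ± 2.57 in BMSC-CT and 215 ± 3.64 in BF-C, and Mmp3 had 7958 ± 1832, 355 ± 123 and 5518 ± 88.8. These are levels side by side, with no test.

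**Figure D4:**
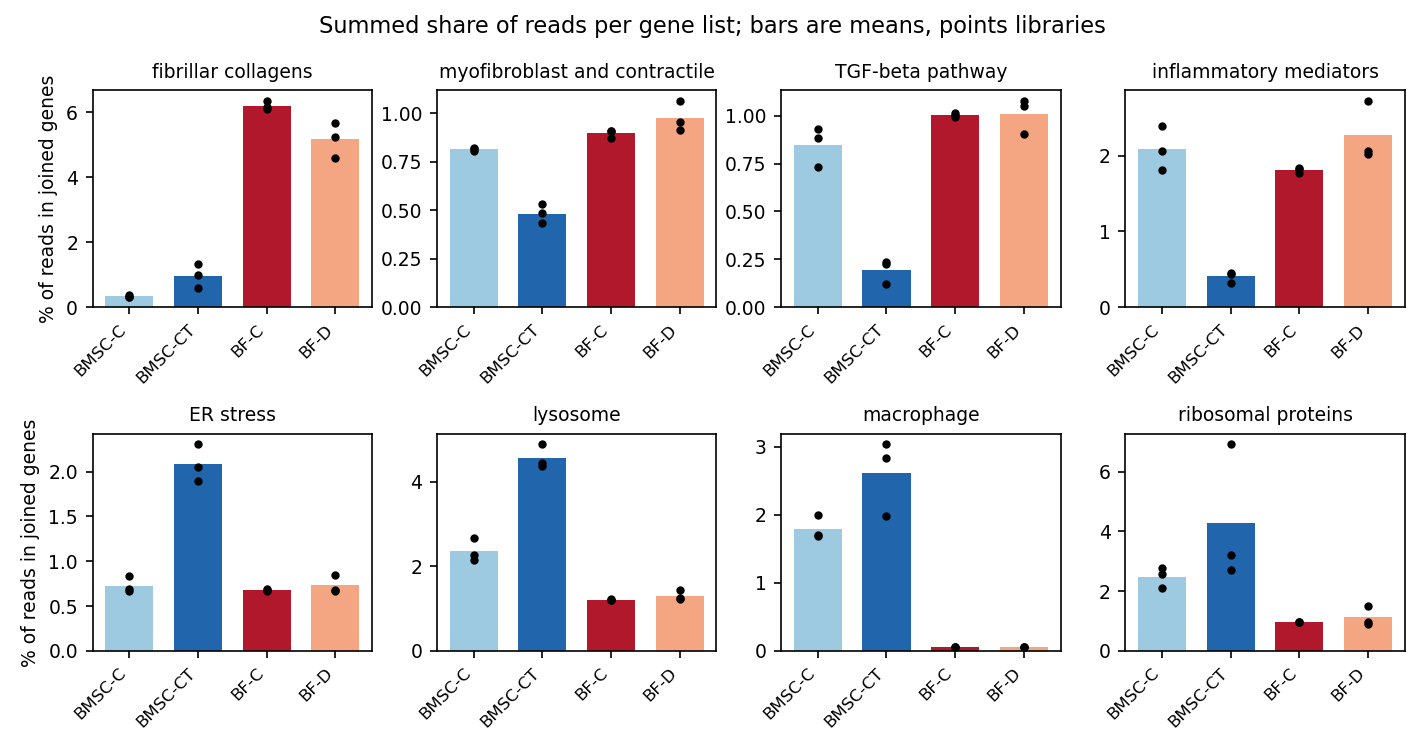
Summed share of reads (%) of 8 gene lists in the 4 groups of libraries; each point is 1 library. Fibrillar collagens are highest in BF-C and BF-D, macrophage genes in BMSC-C and BMSC-CT, and endoplasmic reticulum stress genes in BMSC-CT.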

How the data were processed

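RNA-seq of 12 libraries was deposited as 2 tables of normalised counts, one for the BMSC and one for the BF libraries. Build mm8, of mouse, and Bowtie 0.12.2 are named in the submitters' processing notes; the gene IDs are of rat, the counter is not given in the sources used here, and no coordinates from the tables are printed. The deposited values (signal, in the authors' normalised counts) divided by the smallest value above 0 in a library gave whole reads for 100% of values within 0.01. The authors' deposited tables also hold log2 fold changes and p-values of their own comparisons within each table, not used here. The 16841 named genes in both tables were joined; 730 shared IDs without a gene name lay at different positions in the tables and were left out. Reads of the 6 libraries were TMM-scaled together (edgeR 4.0.16), and genes with a mean of at least 1 scaled read were kept. Then limma 3.58.1 (R 4.3.3) was run with a trend on log2(scaled reads + 1). The added 1 can understate fold changes of low genes: Mkx was at 4.19 here, 7.21 with edgeR and 6.42 with DESeq2. The model averages logs, so a single low library can also overstate them. Bmp2, at 0 reads in BMSC-CT replicate 3, was at 8.28 here, 7.87 with edgeR and 7.90 with DESeq2. P-values were adjusted by Benjamini-Hochberg over all genes tested, and limma treat tested against a 2-fold difference. Alternatives were other scalings, pseudocounts and filters, edgeR, DESeq2 1.42.0, limma-voom, array weights, removal of the length trend and leaving out each library. Scripts were tested on simulated data. Named genes are the largest, most alike and most abundant differences, up to 4 per list by adjusted p, fixed genes and any list member. One gene of this choice is not reported here. The groups compared and the gene lists were chosen with earlier results of these data known.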

Additional observations from a re-analysis of the deposited data

Results flagged for a closer look

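Some genes were listed in one deposited table only and entered no comparison. Of those, 27 named genes of the BMSC table had a mean of at least 100 reads in BMSC-CT, and 0 genes of the BF table had that mean in BF-C. Slamf9, a receptor of macrophages and dendritic cells, had 1764, 2011 and 2370 reads in the BMSC-CT libraries. Clec4a3, a myeloid lectin receptor, had 611, 529 and 408 reads. Csn1s1, a milk casein, had 726, 625 and 446 reads, and the T cell co-receptor chain Cd8b had 476, 514 and 586 reads. A gene absent from the BF table has no value there, and these reads are not compared with BF-C.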

How the results depend on the processing

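Of 141 named genes, 119 passed. Over 3383 comparisons of a named gene with an alternative, 3244 kept direction and side of the threshold, 88 lost the pass, 46 gained it and 2 changed direction. Both that changed did so under the housekeeping scaling, Asns to 0.060 and Tgfb3 to 0.098. The count of genes that differed was 6871 and moved to 10965 with array weights, and it ran from 3447 to 10627 with 1 library left out. Genes higher in BF-C numbered 5778 with array weights and 1714 to 5571 with 1 library left out. Genes higher in BMSC-CT numbered 2080 under the housekeeping scaling, 5187 with array weights and 1724 to 5056 with 1 library left out. Genes more than 2-fold apart numbered 4059 with array weights, 3063 when all 12 libraries set the spread, and 1119 to 3599 with 1 library left out. Genes within 2-fold numbered 4405 with array weights and 1120 to 4845 with 1 library left out. Array weights gave BMSC-CT replicate 3 a weight of 0.0366. The called genes that separated BMSC from BF libraries numbered 3030 with total-read scaling and 4289 without BMSC-CT replicate 3. Where 1 library is left out of a group, the tests rest on fewer samples. The cause of the other moves was not tested.

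The replicate numbers showed no sign of pairing: deviations of same-numbered libraries correlated at 0.0329, 0.00282 and 0.0229 across genes. Those of differently numbered libraries correlated at -0.0317 to 0.0195. These values cannot show that the libraries were unpaired, because BMSC-CT replicate 3 weighs on the deviations of its whole group. With the replicate block, 5264 genes differed and 1263 lay within 2-fold, against 6871 and 1948 without it. The median log2 fold change over all genes shifted by 0.375 with total reads, -0.195 with quantile, 0.542 with housekeeping scaling and -0.263 with the length trend removed. edgeR called 6725 genes, DESeq2 8218 and limma-voom 7117. Keeping the IDs without a gene name, an alternative chosen after seeing the data, gave 7324. Depth limits genes with few reads: their differences may not be detectable.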

Other observations

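Lists outside the comparisons above gave further named genes. Of 6 melanocyte and Schwann cell genes, 3 were higher in BMSC-CT and 1 in BF-C (1 to 2 with 1 library left out). Pmel, a structural protein of melanosomes, had 2275, 2785 and 2790.3 scaled reads in BMSC-CT and 29.7, 26.7 and 28.4 in BF-C, with no overlap and a log2 fold change of -6.48 (SE 0.19, adjusted p = 2.8e-05). The melanosomal proteins Mlana and Tyrp1 were lower in BF-C as well, Tyrp1 with a log2 fold change of -5.56 (SE 0.30, adjusted p = 1.2e-04). Mlana had 846, 439 and 1911 scaled reads in BMSC-CT and 0, 0.954 and 0.887 in BF-C. Of 5 endothelial genes, 2 were higher in BMSC-CT and 1 in BF-C: the receptor kinase Tie1 had 1348, 1523 and 1044 scaled reads in BMSC-CT and 0.763, 3.82 and 0 in BF-C, and its relative Tek, at 0 reads in each BMSC-CT library, was at least 25.8-fold higher in BF-C, with 3 reads over the group as the floor. The levels of Pmel in the untreated BMSCs and in BF-D were 1.86 ± 0.175 and 1.55 ± 0.399 TPM (SD, n = 3), against 76.6 ± 28.0 TPM in BMSC-CT and 1.67 ± 0.0822 TPM in BF-C. Omitting any 1 library, the log2 fold change spanned -9.91 to -8.78 for Tie1.

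Position and sex genes were read as well. Of 28 tested Hox genes and limb regulators, 10 were higher in BF-C (6 to 11 with 1 library left out) and 3 lower, against 22.2% and 21.2% of all genes. Hoxd9, a limb and trunk patterning gene, had 432, 485 and 981 scaled reads in BMSC-CT and 79.3, 66.8 and 74.5 in BF-C and a log2 fold change of -2.99 (SE 0.35, adjusted p = 0.0017). Hoxc6 had 80.1, 86.5 and 93.8 scaled reads in BMSC-CT and 212, 196 and 211 in BF-C, at 1.24 (SE 0.21, adjusted p = 0.0062) on the log2 scale, and the limb regulator Meis1 had 46.6, 51.9 and 36.9 scaled reads in BMSC-CT and 316, 299.5 and 327 in BF-C. All 4 tested Y-linked genes had reads in all 6 libraries, and all were higher in BF-C (1 to 4 with 1 library left out). Kdm5d, a histone demethylase, had 202, 197 and 76.9 scaled reads in BMSC-CT and 704, 666 and 695 in BF-C.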
